A study of Mus musculus with 6 samples.

Results

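Hair follicles grow, regress and rest in cycles, and 9 genes that regulate this cycle were compared in dorsal skin between wild-type (WT) mice and tight skin mutants (TSK). The genes were taken by name (Shh, Gli1, Ptch1, Foxn1, Msx2, Dlx3, Lef1, Fgf5 and Fgf18), and all 9 were found among the 55291 genes of the deposited table. Bulk RNA was sequenced from shaved dorsal skin of 3 TSK mice and 3 WT littermates, all C57BL/6, each mouse giving 1 library of the whole tissue. In the TSK strain part of Fbn1, which encodes fibrillin 1 of the microfibrils, is duplicated, and the mutation is present in all cells of the mouse. The labels give an age of 6 to 8 weeks and female mice for all libraries, whereas the study's methods describe males of 8 weeks. The Y-linked gene Ddx3y was at 56.7 to 72.7 CPM (counts scaled to the same total in every library) over the 6 libraries, and Xist, which is made from the inactive X chromosome, at 2.57 to 4.58 CPM, so the RNA of all libraries went against the label for sex. The cycle stage of the mice is not given in the labels.

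In the growth phase, anagen, matrix cells at the follicle base divide and build the hair shaft and its inner root sheath. The follicle then regresses in catagen and rests in telogen until a new anagen begins. In textbook accounts, sonic hedgehog from the epithelium and Wnt signals drive the entry into anagen, the transcription factors Lef1, Msx2, Dlx3 and Foxn1 act in the matrix and the forming shaft, Fgf5 ends anagen, and Fgf18 holds resting follicles in telogen. Follicles of dorsal skin pass through this cycle in near synchrony in young mice, so whole skin carries a mark of the stage.

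Library totals ranged from 17561453 to 19219814 counts, with overlap between the groups. Fbn1 was at 272 ± 14.2 CPM in WT and 1943 ± 377 CPM in TSK (SD, n = 3), with no overlap. Across all genes, 19971 passed a filter on low counts and were tested. With edgeR at a threshold of 0.05 on the adjusted p, TSK skin had 542 genes above WT and 136 below it, or 2.71% and 0.681% of those tested. Without WT 1 the counts were 713 above and 547 below, and without WT 2 they were 226 and 61. Scaling by library size only in place of TMM, which is built to be robust to a few dominant transcripts, gave 1685 above and 93 below and shifted the overall median log2 fold change, -0.03 with TMM, to 0.25. Below, the values of a group are listed in the order of its replicates 1, 2 and 3.

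Of the 9 hair cycle regulators, Dlx3 and Lef1 rose in TSK skin and 0 fell. Dlx3 was 3.64-fold higher and Lef1 2.15-fold higher after TMM scaling, both with edgeR adjusted p-values below 0.05. The remaining 6 tested members did not pass, namely Gli1, Ptch1, Foxn1, Msx2, Fgf5 and Fgf18. Shh was too low to be tested. The 2 calls among 8 tested members stand beside 3.39% of all tested genes called in either direction. DESeq2 called the same pair, beside 6.98% of the genes it tested. At an unadjusted p below 0.05, 3 members passed in edgeR (Dlx3, Lef1 and Ptch1), beside 20% of all tested genes. On CPM, all TSK values exceeded all WT values for 3 of the 8 tested members, against 29.1% of tested genes. After TMM scaling this again held for 3 of 8, against 14.1%. The median log2 fold change of the 8 tested members was 0.31 (0.47 without WT 1), and that of all tested genes was -0.03. At the study's own, stricter cut-offs (0.01 for the adjusted p and 2.5 for the fold), edgeR called 0 members (3 had an unadjusted p below 0.05) and 0.29% of all tested genes, and DESeq2 called 1 member, Dlx3, and 1.71% of genes.

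**Figure D1:**
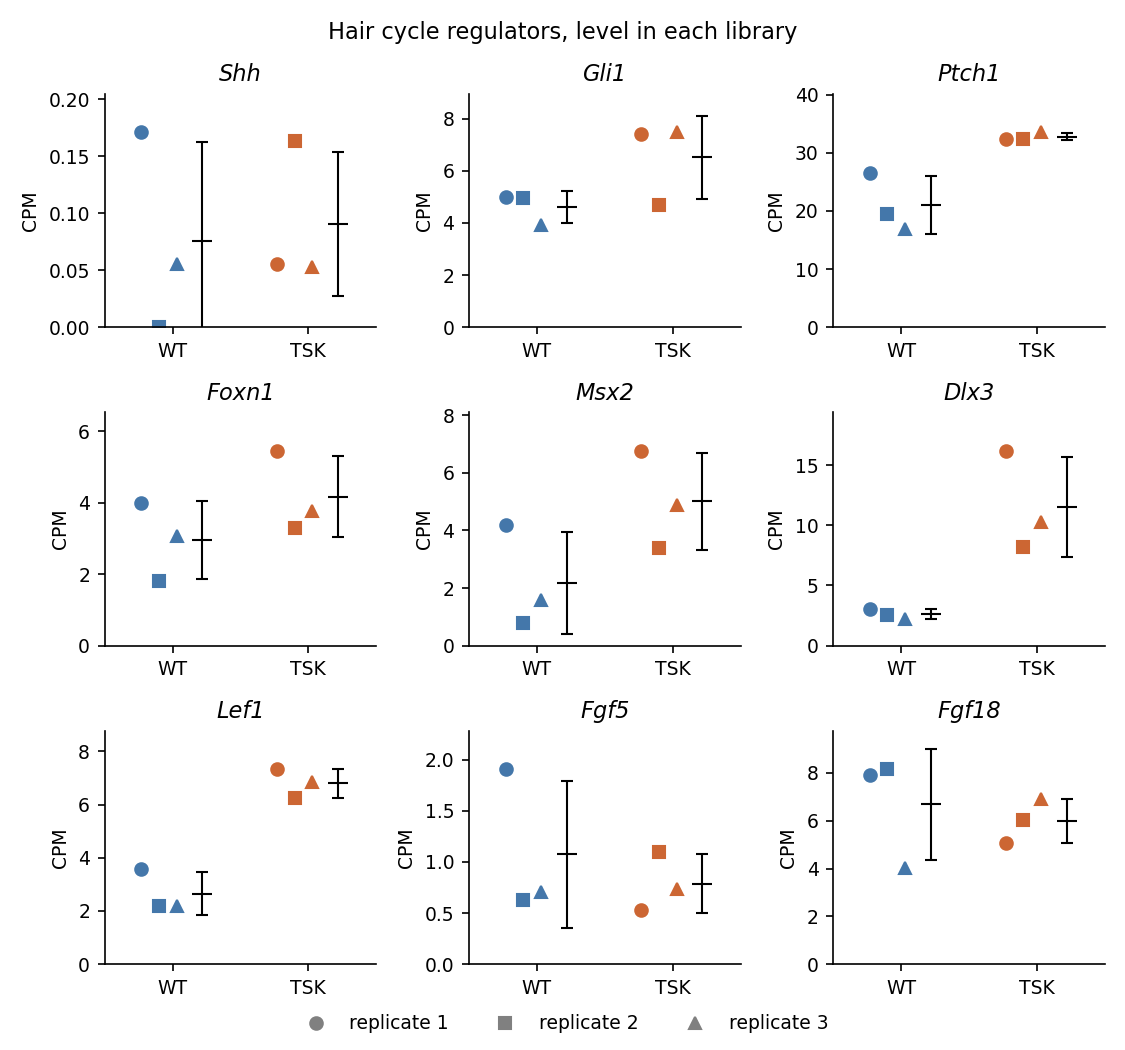
Level of each of the 9 hair cycle regulators in CPM (vertical axis, from 0, with its own scale in each panel) in the 3 WT and 3 TSK libraries; symbols mark the replicate number and the bars show mean and SD. The TSK libraries lie above all WT libraries for Ptch1, Dlx3 and Lef1, and Shh stays below 0.2 CPM in every library.

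Per kilobase of exon, the members covered a wide range of levels. In WT skin Fgf18 had the highest level, at 5.64 ± 1.96 CPM per kb, followed by Ptch1 (1.48 ± 0.351), Dlx3 (1.01 ± 0.159), Gli1 (0.925 ± 0.125), Foxn1 (0.92 ± 0.34), Msx2 (0.664 ± 0.542), Fgf5 (0.43 ± 0.287), Lef1 (0.301 ± 0.0913) and Shh (0.0264 ± 0.0306), all as CPM per kb with SD over 3 mice. From Dlx3 to Lef1, each neighbour in this order overlapped the next in its libraries, so neighbours were not resolved, although all libraries of Dlx3, Gli1 and Foxn1 lay above those of Lef1. In TSK skin Dlx3 stood next to Fgf18, at 4.42 ± 1.59 against 5.05 ± 0.772 CPM per kb, and the libraries of this pair overlapped. Lef1 (0.775 ± 0.0619 CPM per kb) lay above Fgf5 (0.315 ± 0.114) in TSK without overlap, whereas in WT the libraries of these genes overlapped.

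The hedgehog members were the ligand Shh, its receptor Ptch1 and the transcription factor Gli1. Ptch1 and Gli1 are also target genes of the pathway and are widely used as its readout. Shh, encoded on chromosome 5 (mm10, 28456815 to 28467256, minus strand), had 3, 0 and 1 counts in WT and 1, 3.14 and 1 counts in TSK. A library with 0 counts still allows up to 0.16 CPM (3 counts), so Shh lay at about the limit of detection in both groups. The summed counts gave 0.0733 CPM in WT (95% exact Poisson interval 0.02 to 0.188) and 0.0889 CPM in TSK (0.0289 to 0.207), intervals that cover counting error only, and no fold change is given. Its exons share 446 bases with the antisense gene 9530036O11Rik, which had 8.13 to 18.4 counts per library, and whether counting used the strand is not given in the sources used here.

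Ptch1 (chromosome 13, 63508328 to 63573598, minus strand) was at 26.5, 19.5 and 16.9 CPM in WT and 32.4, 32.4 and 33.5 CPM in TSK. The TSK libraries were nearly equal and all above the WT libraries, and this remained so after TMM scaling. The log2 fold change was 0.38 (95% interval 0.068 to 0.69, SE 0.14) and did not pass after adjustment (edgeR adjusted p = 0.17). Short stretches of Ptch1 transcripts match transcripts of other genes, the longest being 148 bases at 95.3% identity to Dusp22. Gli1 (chromosome 10, 127329882 to 127341974, minus strand) was at 5.01, 4.95 and 3.90 CPM in WT and 7.42, 4.68 and 7.47 CPM in TSK. TSK 2 lay within the WT range, and the log2 fold change of 0.22 (interval -0.33 to 0.76, edgeR adjusted p = 0.668) leaves room for a rise of up to 1.7-fold. The Gli1 log2 fold change ran from 0.086 without TSK 1 to 0.41 without TSK 2.

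Of 16 other hedgehog pathway genes, 15 were tested, and with edgeR 2 rose and 0 fell (7 at an unadjusted p below 0.05, and 4 with DESeq2). Gli2, a transcription factor that carries the signal into the nucleus, rose from 7.30 ± 1.08 to 17.0 ± 3.60 CPM (edgeR, 0.95 ± 0.19 SE as log2 fold change, adjusted p = 0.0342). Disp1, a membrane protein needed for the release of hedgehog ligands, rose from 7.78 ± 1.07 to 20.1 ± 3.26 CPM (log2 difference 1.09, SE 0.17, adjusted p = 0.0171). Both act upstream of the readout genes, and Gli2 lost its call without WT 2, WT 3, TSK 1 or TSK 3 and Disp1 without WT 3. The most abundant genes of the list were the co-receptors Gas1 and Cdon and the signal transducer Smo, with log2 fold changes of 0.66, 0.29 and 0.39 and adjusted p-values of 0.0666, 0.326 and 0.163. Ihh was not tested, at 0.10 to 0.16 CPM over the libraries, and Dhh was at 2.51 ± 0.68 CPM in WT and 3.44 ± 0.736 CPM in TSK. The median log2 fold change of the 15 genes was 0.39, beside -0.03 for all tested genes.

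**Figure D2:**
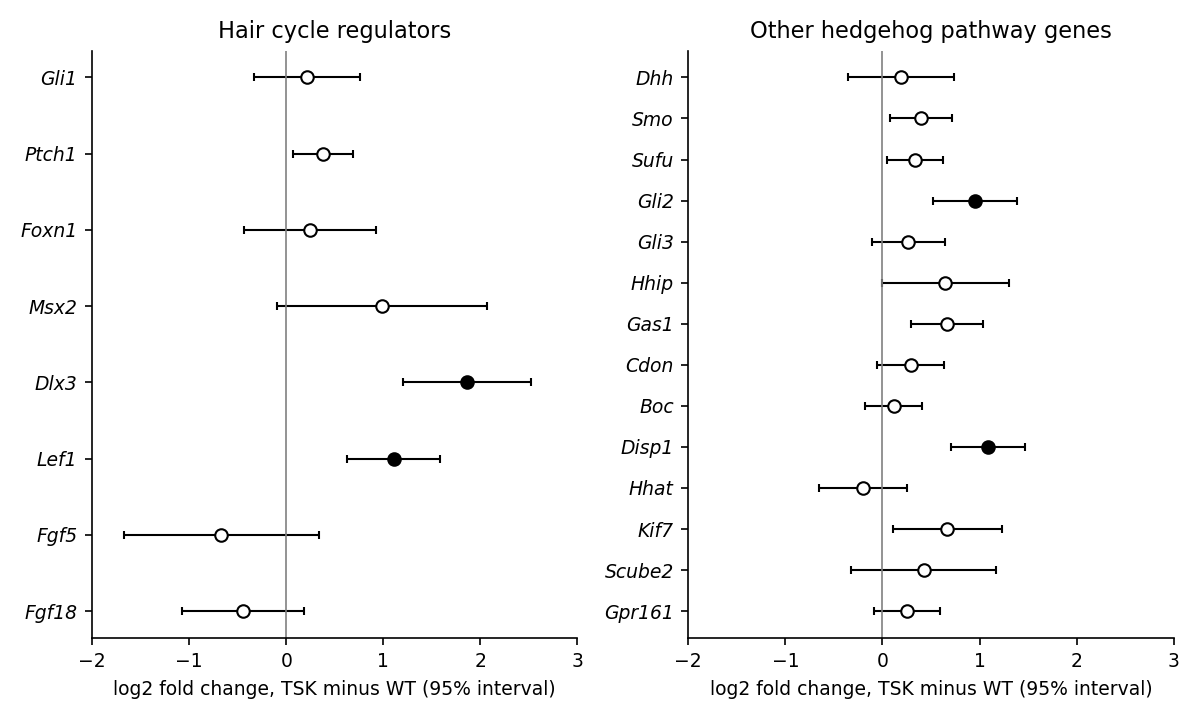
Log2 fold change, TSK minus WT, with its 95% interval (horizontal axis) for the 8 tested hair cycle regulators (left) and 14 of the 15 other tested hedgehog pathway genes (right); filled points have an adjusted p below 0.05. Dlx3, Lef1, Gli2 and Disp1 are filled, and the interval of Gli1 spans 0.

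The transcription factors of the follicle matrix held both members that rose. Dlx3 is a homeodomain factor of the hair matrix and also of the suprabasal epidermis (chromosome 11, 95120119 to 95125296, plus strand). It was at 3.07, 2.58 and 2.25 CPM in the WT mice, against 16.2, 8.17 and 10.2 CPM in TSK. Every TSK library was well above the WT libraries, and TSK 1 was the highest. The log2 fold change was 1.87 (SE 0.29, 95% interval 1.2 to 2.53, edgeR adjusted p = 0.0171). Without WT 3 the adjusted p was 0.0853 at a log2 fold change of 1.80. The differentiated keratinocyte list is of cells that also make Dlx3. It summed to 2527, 1599 and 2092 CPM in WT and 4888, 3671 and 2810 CPM in TSK, without overlap on CPM and with TSK 1 the highest. All TSK values exceeded all WT values for 5 of its 8 genes on CPM and for 2 after TMM scaling (29.1% and 14.1% of all tested genes). The part of these cells in the Dlx3 result was not tested.

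Lef1 is a partner of beta-catenin that carries Wnt signals in the matrix and the hair germ (chromosome 3, 131110471 to 131224356, plus strand). It was at 3.57, 2.20 and 2.17 CPM in the WT mice, against 7.32, 6.24 and 6.86 CPM in TSK, with no overlap and WT 1 the highest of its group. The log2 fold change was 1.11 (SE 0.21, interval 0.63 to 1.59, edgeR adjusted p = 0.0299). This call did not hold when any library other than WT 1 was left out (adjusted p of 0.101 without WT 2, 0.135 without WT 3, 0.0769 without TSK 1, 0.0544 without TSK 2 and 0.0626 without TSK 3), while the log2 fold change stayed between 1.01 and 1.17. The antisense gene Gm43352 overlaps 1208 exon bases of Lef1, so reads of these genes cannot be told apart if counting ignored the strand. Lef1 is also made in T cells, and the T cell list summed to 16.1, 9.10 and 13.5 CPM in WT and 18.3, 16.9 and 18.4 CPM in TSK. In that list 0 of 7 tested genes passed with edgeR (1, Cd2, at an unadjusted p below 0.05, and 0 with DESeq2). Cd2, with 12, 6 and 9 counts in WT, passed the filter on low counts through the TSK libraries. The part of the T cell list in the Lef1 result was not tested.

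Msx2, a homeodomain factor of the matrix and the shaft (chromosome 13, 53466884 to 53473074, minus strand), was at 4.17, 0.772 and 1.58 CPM in the WT mice, against 6.76, 3.41 and 4.87 CPM in TSK. WT 1 lay above TSK 2, so the groups overlapped, and the spread within WT was wide. The log2 fold change of 0.99 (SE 0.48, interval -0.1 to 2.07) did not pass (edgeR adjusted p = 0.294). It was 1.74 without WT 1 (adjusted p = 0.0543) and 0.64 without WT 2. Foxn1, the factor missing in nude mice, in which shafts form but break (chromosome 11, 78357577 to 78386558, minus strand), was at 3.99, 1.81 and 3.08 CPM in the WT mice, against 5.45, 3.28 and 3.77 CPM in TSK. Here too the libraries of the groups overlapped (log2 fold change 0.25, interval -0.43 to 0.92, adjusted p = 0.701). The Foxn1 value was -0.027 without TSK 1, 0.049 without WT 2 and 0.44 without WT 1. In bulk skin fewer cells of a type and less RNA per cell cannot be told apart, for these and all other genes.

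Homeodomain factors such as Dlx3 and Msx2 bind a core of TAATTA or TAATTG, and Lef1 one of CTTTGAA or CTTTGAT. The 250 bases before the transcription start were searched on both strands for these cores and for the GLI core GACCACCCA. RefSeq promoters (GRCm38.p6, called mm10 at UCSC) matched 6 of the 9 members, namely Ptch1, Foxn1, Msx2, Lef1, Fgf5 and Fgf18. A homeodomain core was found before Foxn1 (29 bases before the start) and Msx2 (187 bases before it), and in 11.3% of all 32851 promoter windows of this length. No TCF/LEF core (7.48% of windows) and no GLI core (0.225%) was found before these 6 genes. Starts are those of RefSeq. The Msx2 window and the Ptch1 window (chr13:63565736-63565985) lie inside these genes as placed above from GENCODE, whose starts are farther upstream. The same holds for the Lef1 windows that begin at 131112541 and 131156044. For Ptch1 the absence of a GLI core covers that inner window only, not the GENCODE start. Neither match overlapped another searched core. A match of letters is a description and not a binding site. The Foxn1 and Msx2 windows are shown for the match, in capitals, and 1 of 4 Lef1 windows is shown because Lef1 rose.
Foxn1, chr11:78386609-78386858, minus strand: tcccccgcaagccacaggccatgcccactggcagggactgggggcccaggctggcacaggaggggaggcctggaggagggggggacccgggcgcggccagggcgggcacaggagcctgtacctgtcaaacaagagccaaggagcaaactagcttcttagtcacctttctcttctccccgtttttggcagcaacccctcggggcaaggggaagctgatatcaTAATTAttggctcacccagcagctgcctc
Msx2, chr13:53472781-53473030, minus strand: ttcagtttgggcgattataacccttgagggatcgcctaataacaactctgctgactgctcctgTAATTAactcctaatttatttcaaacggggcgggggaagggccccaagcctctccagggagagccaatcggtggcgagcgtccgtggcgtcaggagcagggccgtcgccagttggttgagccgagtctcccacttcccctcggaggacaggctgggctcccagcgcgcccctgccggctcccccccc
Lef1, chr3:131110073-131110322, plus strand: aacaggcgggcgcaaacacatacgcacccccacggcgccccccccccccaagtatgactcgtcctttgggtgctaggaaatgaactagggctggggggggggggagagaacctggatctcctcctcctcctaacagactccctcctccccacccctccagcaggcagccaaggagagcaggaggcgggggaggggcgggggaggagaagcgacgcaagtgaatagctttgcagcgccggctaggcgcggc

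Among 18 other regulators of the growing follicle, 16 were tested, and 2 rose and 0 fell. Wnt10b, a Wnt ligand tied to the onset of anagen, rose from 2.05, 1.49 and 1.37 CPM in WT to 10.6, 12.6 and 18.8 CPM in TSK. It had the greatest fold change among these regulators (edgeR, 2.82 ± 0.25 SE as log2 fold change, adjusted p = 0.0033), and the call held whichever library was left out. Prdm1, a repressor found in sebaceous and differentiating epidermal cells as well as the follicle, rose from 5.07 ± 1.16 to 17.4 ± 2.47 CPM (log2 difference 1.52, adjusted p = 0.00847, and 0.0561 without WT 3). The most abundant genes of the list, Hr, Cux1 and Gata3, had log2 fold changes of 0.41, -0.09 and -0.04 and did not pass (adjusted p of 0.328, 0.76 and 0.929). Hoxc13, a regulator of hair keratin genes, was at 6.32, 2.93 and 3.24 CPM in WT and 10.2, 5.83 and 8.11 CPM in TSK, with overlap of the groups (adjusted p = 0.227). The median over the 16 genes was 0.091, and 0.017 without TSK 1, 0.259 without TSK 2, 0.287 without WT 1 and 0.052 without WT 2.

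Lef1 belongs to the TCF family, and 1 of 9 tested relatives and Wnt target genes rose. This was Tcf7l1, a factor of resting stem cells, which rose from 13.2 ± 3.66 to 26.8 ± 3.20 CPM (edgeR, 0.76 ± 0.15 SE as log2 fold change, adjusted p = 0.0342), a call lost when any library other than WT 1 was left out. Beta-catenin itself, Ctnnb1, was at 170 ± 35.1 CPM in WT and 248 ± 10.8 CPM in TSK (log2 fold change 0.28, adjusted p = 0.308). The abundant receptor Lgr4 and the Wnt target gene Axin2, a common readout, had log2 fold changes of 0.035 and -0.09 (adjusted p of 0.916 and 0.818). The target genes Notum and Nkd1 were higher in all 3 TSK libraries than in WT without passing in edgeR, with log2 fold changes of 2.5 (adjusted p = 0.068) and 1.23 (0.067). Notum, with 7, 1 and 2 counts in WT, was tested only through the TSK libraries, so its values are a description. Nkd1 passed in 7 of its 16 alternatives, and DESeq2 called 3 of the 9 genes of the list.

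The FGF members act at opposite ends of the cycle, and neither passed the test. Fgf5 (chromosome 5, 98254184 to 98277030, plus strand) was at 1.90, 0.623 and 0.701 CPM in the WT mice, against 0.531, 1.096 and 0.736 CPM in TSK. WT 1 stood above the other 5 libraries, which overlapped (log2 fold change -0.67, interval -1.68 to 0.34, edgeR adjusted p = 0.447). Without WT 1 the log2 fold change was -0.11, so its size rested on that library. Fgf18 (chromosome 11, 33117430 to 33147400, minus strand) was at 7.92, 8.14 and 4.01 CPM in the WT mice, against 5.06, 6.04 and 6.89 CPM in TSK. All TSK libraries lay inside the range of WT (log2 fold change -0.44, interval -1.07 to 0.19, adjusted p = 0.419). It was -0.17 without WT 2 and -0.68 without WT 3. Of 13 other FGF ligands and receptors, 10 were tested and 0 passed with edgeR (3 of 12 passed with DESeq2 and 4 had an unadjusted p below 0.05 in edgeR), and their median was 0.19 on the log2 scale (0.41 without WT 1 and 0.38 without WT 2). The nearest was Fgf2, at 17.3 ± 3.22 CPM in WT and 42.2 ± 10.2 CPM in TSK (log2 difference 0.98, adjusted p = 0.0522). Fgf10, a ligand of the dermal papilla and of fat, was at 0.915, 0.845 and 0.989 CPM in the WT mice, against 2.36, 8.82 and 2.01 CPM in TSK, where TSK 2 stood apart (adjusted p = 0.106). The receptors Fgfr1, Fgfr2 and Fgfr3, the most abundant genes of the list, had log2 fold changes of 0.58, -0.05 and -0.13.

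To read the cycle stage of each library, genes of the growing follicle were examined. Of 22 hair shaft and inner root sheath genes, 15 were below 1 CPM in each WT library, and 10, 4 and 6 were below it in TSK. The keratins of the shaft itself were low in both groups. Krt31 was at 0.252, 0.0876 and 0 CPM in WT and 0.229, 0.376 and 0.794 CPM in TSK, Krt82 had 0 counts in every WT library and at most 0.156 CPM in TSK, and the most abundant, Krt32, had means of 2.186 and 3.23 CPM. These 3 keratins overlapped between the groups. Krt33a, Krt33b, Krt34, Krt35 and Krt81, also of the shaft, were higher in each TSK library than in all WT libraries at levels of up to 1.58 CPM. Of these, Krt34, Krt35 and Krt81 passed the filter on low counts through the TSK libraries and were not called. All TSK values exceeded all WT values on CPM for 13 of the 22 list genes, untested ones included, against 29.1% of all tested genes. After TMM scaling this held for 7 of the 17 tested list genes, against 14.1%. The 7 include Krt34, Krt35 and Krt81, which passed the filter through the TSK libraries, so both counts are a description. The whole list summed to 149, 118 and 66.5 CPM in WT and 129, 121 and 139 CPM in TSK, mostly from Tchh and Krt75 (exact permutation test, two-sided, p = 0.6, where 3 mice against 3 allow no p below 0.1). Krt75, a keratin of the companion layer, was at 49.1 ± 19.23 CPM in WT and 34.7 ± 11.5 CPM in TSK.

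The inner root sheath keratins Krt25, Krt27 and Krt71 rose from this low base, while their relatives Krt26, Krt28 and Krt72 did not pass and Krt73 was too low to be tested. Krt71 was at 1.35, 0.213 and 0 CPM in the WT mice, against 5.65, 12.05 and 6.99 CPM in TSK, with a log2 fold change of 3.74 ± 0.72 SE (adjusted p = 0.032 in edgeR). Krt25 was at 0.098, 0.234 and 0 CPM in the WT mice, against 2.36, 6.73 and 2.49 CPM in TSK (log2 difference 4.77, adjusted p = 0.0171). Krt27 rose from 0.273 ± 0.0277 to 2.05 ± 1.11 CPM (log2 difference 2.58, adjusted p = 0.0348). TSK 2 was the highest library for all 3 keratins, and the WT libraries held 0 to 4.40 counts of Krt25, 4.29 to 5.62 of Krt27 and 0 to 23.8 of Krt71. These keratins passed the filter on low counts through the TSK libraries, the group where they are high, so their calls and the size of their fold changes are a description and carry no weight on the cycle stage. Of the 17 genes of the list that passed the filter, edgeR called 3, all higher, and DESeq2 called 2 of 19. Krt27 was lost without WT 1, WT 2, WT 3, TSK 2 or TSK 3, Krt71 without WT 2, WT 3, TSK 2 or TSK 3, and Krt25 without WT 3. Members of this keratin family are similar in sequence, so reads may be shared among them.

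**Figure D3:**
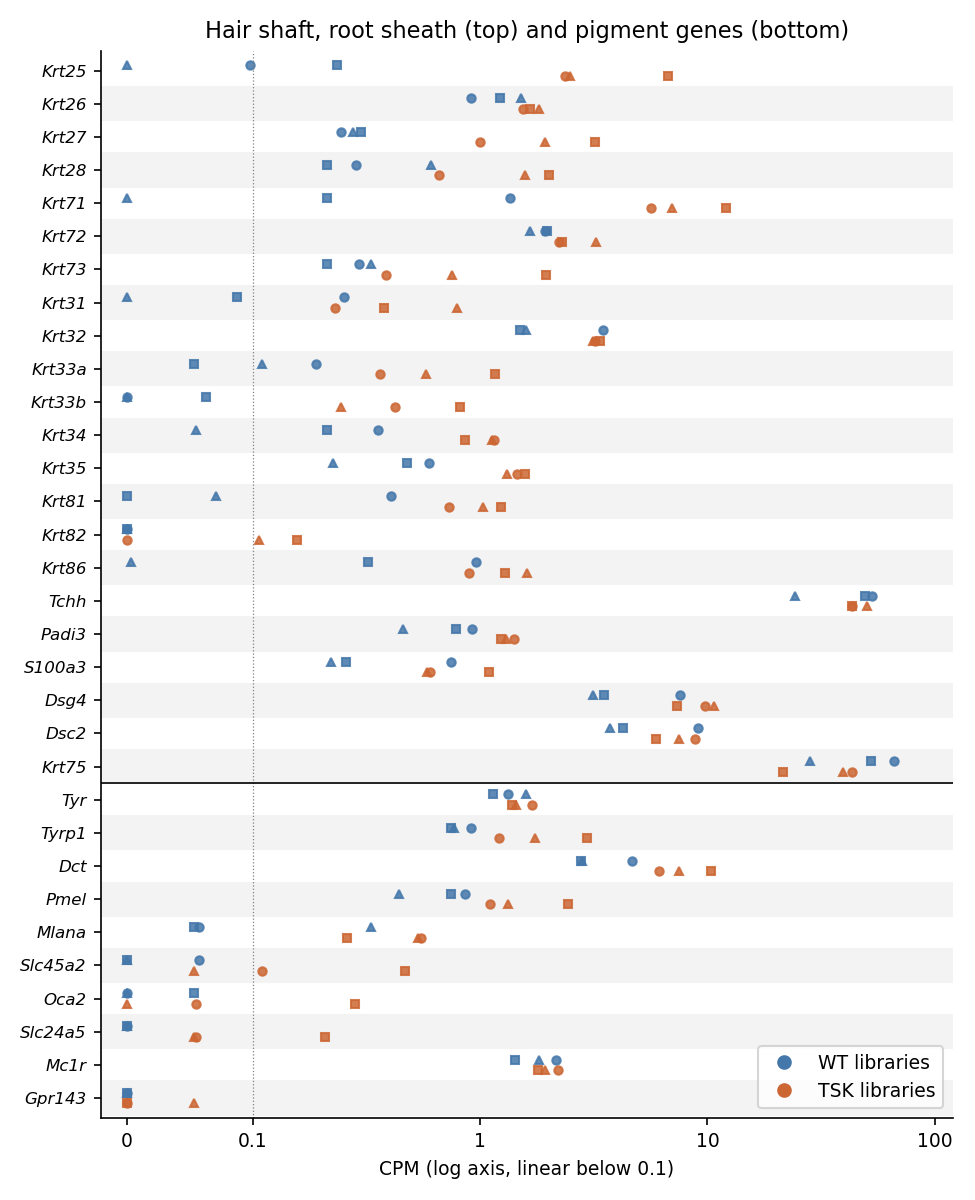
Level in CPM (horizontal log axis, linear below 0.1) of 22 hair shaft and inner root sheath genes (above the black line) and 10 pigment genes (below it), with 1 point per library. Most genes lie below 10 CPM in all 6 libraries, and Krt25, Krt27 and Krt71 are higher in each TSK library than in all WT libraries.

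Pigment is made in dorsal mouse skin while follicles are in anagen, and the 10 pigment genes were also low. They summed to 10, 6.94 and 7.76 CPM in WT and 13.1, 20.2 and 14.7 CPM in TSK, with no overlap (exact permutation test, two-sided, p = 0.1, the smallest possible). TSK 2 was again the highest. Dct was at 4.63, 2.78 and 2.82 CPM in the WT mice, against 6.14, 10.4 and 7.52 CPM in TSK (log2 fold change 0.98, edgeR adjusted p = 0.0669), and Tyr, the rate-limiting enzyme of melanin synthesis, at 1.14 to 1.59 CPM in WT and 1.38 to 1.68 CPM in TSK. Of 5 tested pigment genes 0 passed with edgeR (3 had an unadjusted p below 0.05, and 1 passed with DESeq2). Among the 3, Pmel, with 15, 14 and 8 counts in WT, met the filter on low counts only with the TSK libraries. Genes of dividing cells showed another order. The proliferation list summed to 209, 82.5 and 131.5 CPM in WT and 133, 106 and 129 CPM in TSK, with WT 1 the highest library, and 0 of 12 genes passed with edgeR or DESeq2 (2 at an unadjusted p below 0.05 in edgeR). The median log2 fold change of these 12 genes was -0.47, and it was -0.19 without WT 1, -0.73 without WT 2, -0.23 with library size only and 0.043 with scaling to basal keratinocyte genes.

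Genes of the bulge, where stem cells of the resting follicle sit, were detected in both groups. Krt15, a keratin of the bulge and of basal epidermis, was at 1275 ± 513 CPM in WT and 1228 ± 250 CPM in TSK, and the bulge and hair germ list of 13 genes had a median log2 fold change of -0.05 (0.198 without WT 1) with 1 rise and 1 fall. The rise was in Cd34, from 68.1 ± 7.90 to 159 ± 33.1 CPM (log2 difference 0.94, adjusted p = 0.0202), which marks bulge cells and also vessels and fibroblasts, and whose call was lost without WT 2, WT 3 or TSK 2. Krt24 fell by 1.09 on the log2 scale, from 5.15 ± 1.46 to 2.91 ± 0.142 CPM (adjusted p = 0.038). This call was lost whichever library was left out, and it held in 5 of its 16 alternatives. Among signals held to keep follicles at rest, 3 of 7 tested genes rose: Id3, a target of BMP signals (1.08, adjusted p = 0.0148), Bmp6 (0.98, 0.0394) and the Wnt antagonist Sfrp4 (2.12, 0.0375), all as log2 fold changes with edgeR adjusted p-values. Id3 lost its call without WT 3, Bmp6 whichever library was left out, and Sfrp4 when any library other than TSK 2 was. Bmp2, a further signal of this kind, was at 21.1 ± 7.99 CPM in WT and 20.5 ± 2.08 CPM in TSK (adjusted p = 0.48). Of 6 tested signals held to start growth, 0 passed with edgeR (2 at an unadjusted p below 0.05, and 0 with DESeq2). Of 6 tested signals of catagen, 0 passed with edgeR (1 at an unadjusted p below 0.05), and DESeq2, which tested 7, called 1, which was lower in TSK.

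The dermal papilla, the mesenchymal cluster that instructs the follicle, was represented by 14 genes, of which 12 were tested and 1 rose. Corin, a protease of papilla cells, was at 0.626, 0.266 and 0.66 CPM in the WT mice, against 7.59, 5.10 and 8.43 CPM in TSK, well apart in every library (edgeR, 3.49 ± 0.34 SE as log2 fold change, adjusted p = 0.00519). Corin had 11, 5 and 12 counts in WT and passed the filter on low counts through the TSK libraries, so its call is a description. Other papilla genes were low (Sox2 at 0 to 0.399 CPM and Rspo2 at 0 to 0.477 CPM) or did not pass in edgeR, such as Vcan, at 40.3 ± 9.22 CPM in WT and 76.2 ± 15.6 CPM in TSK (adjusted p = 0.111). Of the 12 genes, 5 had an unadjusted p below 0.05 in edgeR and 2 passed with DESeq2, and the median was 0.56.

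Summed levels of cell type lists were compared between the groups, and their part in the member results was not tested. Basal keratinocyte genes, which mark the epidermis and the outer root sheath, summed to 8071, 4913 and 5550 CPM in WT and 6435, 4534 and 4500 CPM in TSK, with 0 of 6 passing in edgeR (2 at an unadjusted p below 0.05, and 1 with DESeq2). Differentiated keratinocyte genes summed to 1599 to 2527 CPM in WT and 2810 to 4888 CPM in TSK, and edgeR called 1 of 8 (3 at an unadjusted p below 0.05, and 2 with DESeq2). This was Lor, which encodes a cornified envelope protein and rose (log2 fold change 1.78, adjusted p = 0.00913, lost without WT 3). Adipocyte genes summed to 225 to 287 CPM in WT and to 761, 3168 and 580 CPM in TSK, where TSK 2 stood apart, and edgeR called 3 of 9, all higher (8 at an unadjusted p below 0.05, and 6 with DESeq2). That count was 0 without WT 2 or WT 3, 1 without WT 1, 5 without TSK 1 and 6 without TSK 2 or TSK 3. Fibroblast genes summed to 6375 to 9690 CPM in WT and 20460 to 47430 CPM in TSK, and edgeR called 1 of 8, Thy1, which was higher (6 at an unadjusted p below 0.05, and 6 with DESeq2), a call lost whichever library was left out. Sebaceous gland genes, from the gland attached to each follicle, summed to 453, 159 and 276 CPM in WT and 857, 6362 and 594 CPM in TSK. Most of this came from Scd1, a lipid enzyme also made in fat (336, 142 and 213 CPM in WT and 774, 6276 and 468 CPM in TSK), while each of the other 8 genes overlapped between the groups, and 0 of 9 passed in edgeR (1 at an unadjusted p below 0.05) or DESeq2. Skeletal muscle genes summed to 158300 to 229900 CPM in WT and 136400 to 156700 CPM in TSK, with 0 of 13 passing in edgeR (9 at an unadjusted p below 0.05, and 11 with DESeq2). When libraries were scaled to the basal keratinocyte genes, Dlx3 and Lef1 still rose (log2 fold changes of 2.29 and 1.62, edgeR adjusted p of 3.61e-07 and 0.0011), Msx2 passed (1.52, adjusted p = 0.00401) and Fgf18 turned from -0.44 to 0.068. Under it the median over all tested genes stood at 0.47, the shift against which these values are to be read. The SE of Dlx3 and Lef1 were larger under it (0.387 and 0.394) than in the main fit (0.29 and 0.21). Their lower adjusted p-values therefore did not come from a smaller error.

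Genes with the most similar pattern to each member were found by Pearson's r of TMM-scaled log2 CPM over the 6 libraries, a description in which high values arise easily, since up to 191 genes exceeded 0.95 for 1 member. Nearest to Dlx3 were Tgm1, the transglutaminase that cross-links the cornified envelope (r = 0.986), Ece1 (0.985) and Mxd1 (0.985). Nearest to Lef1 were the claudin gene Cldn23 (0.998), Dock5 (0.997) and Phactr1 (0.995). Nearest to Msx2 were Rassf9, Nkpd1 and Raver1 (0.996 to 0.999), to Foxn1 Garem1, Tpbg and Ap1b1 (0.988 to 0.99) and to Ptch1 Rnf152, Gm37849 and Mnt (0.987 to 0.99). Gli1 was nearest to Opalin, Akr1c19 and Adcy8 (0.974 to 0.982), Fgf5 to Gm43292, Slc5a4b and Mpp1 (0.979 to 0.994) and Fgf18 to 0610040B10Rik, Phf3 and Gm49216 (0.982 to 0.987). Among the members themselves r was 0.957 for Dlx3 and Lef1, 0.93 for Lef1 and Ptch1, 0.489 for Gli1 and Ptch1 and 0.395 for Fgf5 and Fgf18.

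**Figure D4:**
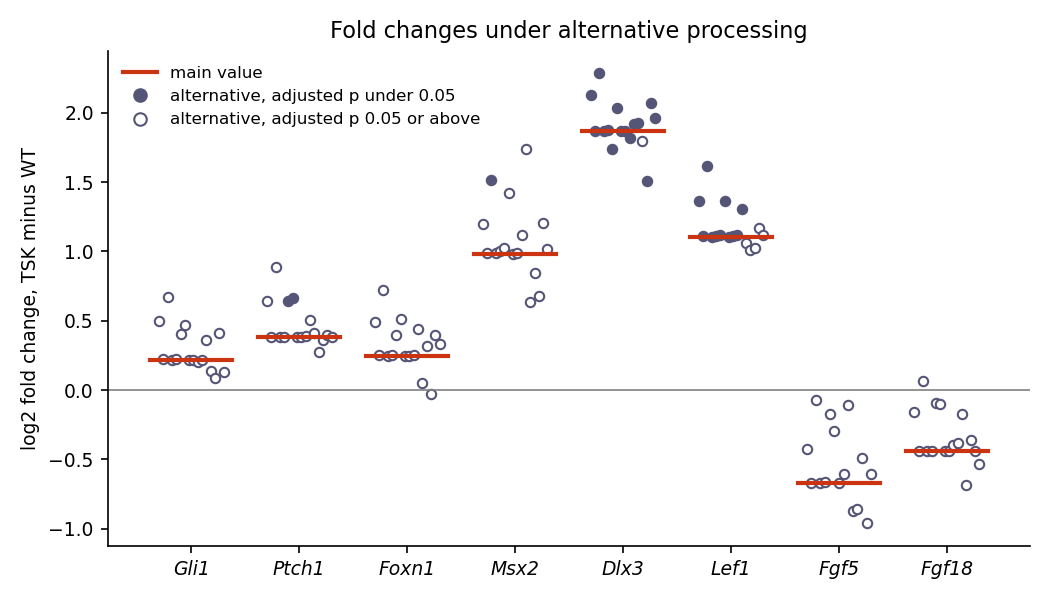
Log2 fold change, TSK minus WT (vertical axis), of the 8 tested members under each alternative (points, filled where the adjusted p was below 0.05) and in the main comparison (red line). Dlx3 runs from 1.51 to 2.29 and Lef1 from 1.01 to 1.62, and the points of Foxn1 and Fgf18 reach both sides of 0.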

How the data were processed

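RNA from shaved dorsal skin of 3 TSK and 3 WT mice was read as 2 deposited tables. Per the labels and the study's methods, libraries were stranded and depleted of ribosomal RNA, single-end reads of 50 bases were demultiplexed with bcl2fastq 2.19.1.403 and aligned with STAR to mm10, and genes were quantified in Partek Flow 11.0 with Ensembl annotation. The authors deposited estimated counts per gene, with 43.3% to 45.4% whole (within 0.001) among values above 0, and CPM scaled to library totals. The planned test was for raw counts, so estimated counts were rounded for it, and printed CPM are counts divided by the library total.

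Genes were tested by quasi-likelihood in edgeR 4.0.16 (R 4.3.3) with TMM scaling, filterByExpr and Benjamini-Hochberg adjustment over 19971 genes, called below 0.05. Standard errors came from the F statistic and 95% intervals from the total degrees of freedom of the fit. These add a prior estimated over all genes to the residual ones. Alternatives used DESeq2 1.42.0 and limma 3.58.1 on the deposited CPM (pseudocounts of 1 and 0.1). The fits were tested on simulated data. Permutation tests were exact over samples. Gene models were GENCODE M21, and matches to other transcripts were found with BLAST 2.17.0 (95% identity or more).

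The members and gene lists were chosen with earlier results of these data known. Named genes were the members, list genes past the test, the 3 most abundant of the main lists, the 3 nearest in pattern to each member and Fbn1. Other list genes (Ihh, Dhh, Hoxc13, Notum, Nkd1, Fgf2, Fgf10, Krt26, Krt28, Krt31, Krt32, Krt33a, Krt33b, Krt34, Krt35, Krt72, Krt73, Krt81, Krt82, Scd1, Dct, Tyr, Pmel, Cd2, Bmp2, Sox2, Rspo2 and Vcan) and the sex-linked genes were named after their values were seen. Same-numbered libraries did not deviate together (r of 0.0112, 0.167 and -0.0938), and the main test did not pair them. This cannot exclude pairing, since the litter of each mouse is not given in the sources used here. Libraries of a group differed by a chi-square per degree of freedom of at least 8.6, so none was counted as a repeat. 1 tested gene of the hedgehog list is counted but not reported here. P-values measure the spread between mice, which the gene tests draw towards that of other genes.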

Additional observations from a re-analysis of the deposited data

How the results depend on the processing

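With 3 mice a group and most members below 10 CPM, changes may have been missed, and the size that could be detected was not measured. The 678 genes past an adjusted p of 0.05 became 1778 with library size only (1685 higher and 93 lower, against 542 and 136), 2424 with basal keratinocyte scaling (2372 and 52), 1533 with DESeq2, 1871 and 1860 with limma-trend on log2(CPM + 1) and log2(CPM + 0.1), 1387 with no filter, and 60 to 1260 without 1 library. The 2 members called, Dlx3 and Lef1, were also called under all 10 alternatives that kept the 6 libraries and the threshold, with Msx2 added by basal keratinocyte scaling and Ptch1 by both limma-trend fits (log2 fold changes of 0.64 and 0.67). The limma-trend fits used CPM without TMM, and the median over all tested genes in them was 0.20 and 0.25. Leaving out 1 library gave 0 to 2 members. The 0 came without WT 3, where 3 members had an unadjusted p below 0.05 and DESeq2, added after this was seen, called 2. The thresholds of the study gave 0 with edgeR and, in an alternative also added later, 1 with DESeq2. Directions turned for Fgf18 with basal keratinocyte scaling (0.068, where the median of all genes was 0.47) and for Foxn1 without TSK 1 (-0.027, against at most 0.44 without another library). Of 127 member values, 116 had the same sign and call as reported, 6 fell short of the threshold, 3 newly passed it and 2 had the other sign. With the replicate block 794 genes and 2 members were called, and no member's call changed. The causes were not tested.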
